A study of Mus musculus with 30 samples.

Results

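The Bcl2 family of survival and death genes was followed in mouse cells arrested at early steps of B cell development and, for some chromatin lists, in a T cell line. The members were the 10 genes Bcl2, Bcl2l1, Mcl1, Bax, Bak1, Bcl2l11, Bid, Pmaip1, Bmf and Bad, taken as every array probe that carries one of these gene names, together with every listed chromatin peak within 50 kb of those probes. They held 21 of the 41174 probes on the array and 10 of its 27566 named genes. RNA came from 3 groups of 2 samples each, all on the C57BL/6 strain. E2A-/- and EBF-/- pre-pro-B cells, which lack the transcription factors E2A or EBF1, were grown over S17 stroma with IL-7, SCF and FLT3 ligand. RAG1-/- pro-B cells, which cannot cut their antigen receptor genes, were taken from femoral marrow through B220 and grown with IL-7 and SCF over 10 d, with neither stroma nor FLT3 ligand. In comparisons with RAG1-/- cells, then, culture and genotype cannot be told apart, and neither sex, age nor pooling of mice is given in the sources used here. Chromatin immunoprecipitation sequencing (ChIP-seq), with 1 library per condition, gave 23 peak lists and 1 control list from wild-type lymphoid cells handled without antibody. The 23 lists came from EBF-/- cells, RAG1-/- cells, E2A-/- pre-pro-B cells and A12, an E2A-/- T cell line. E2A-/- and A12 cells carried the tamoxifen-activated fusion proteins E47-ER or bHLH-ER, described below. After 21 h of culture they received 1 µM tamoxifen for 1 h or 6 h (A12 for 6 h only).

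The family decides whether the outer mitochondrial membrane stays intact. Bcl2, Bcl2l1 (Bcl-xL) and Mcl1 encode survival proteins that hold the pore-forming effectors Bax and Bak1 in check. The BH3-only proteins, here Bcl2l11 (Bim), Bid, Pmaip1 (Noxa), Bmf and Bad, bind the survival proteins and some also engage the effectors, after which cytochrome c leaves mitochondria and caspases are activated. In the B lineage, IL-7 receptor signalling is known to sustain progenitors through this family, Bim is known as a main killer of lymphocytes deprived of cytokine, and forkhead factors such as FOXO1 are known to act on the Bcl2l11 gene.

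The stretches of 250 bases upstream of a RefSeq transcription start (GRCm38.p6) are shown for the survival genes whose RNA changed at the brightest probe (Bcl2 and Bcl2l1), for the death gene Bcl2l11, and for Bmf, whose surroundings held the highest-ranked E2A peak in RAG1-/- cells. They lie at chr1:106714291-106714540 on the minus strand (Bcl2), chr2:152831729-152831978 on the minus strand (Bcl2l1, the most upstream of 3 starts), chr2:128125788-128126037 on the plus strand (Bcl2l11, the upstream of 2 starts) and chr2:118547600-118547849 on the minus strand (Bmf, the middle of 3 starts). Capitals mark the letters CAGCTG or CAGGTG (E-box forms that E2A can bind), CCCNNGGG (an EBF-type core) or TGTTTAC (a forkhead core), searched on both strands (CACCTG and GTAAACA are the reverse letters of CAGGTG and TGTTTAC).
Bcl2: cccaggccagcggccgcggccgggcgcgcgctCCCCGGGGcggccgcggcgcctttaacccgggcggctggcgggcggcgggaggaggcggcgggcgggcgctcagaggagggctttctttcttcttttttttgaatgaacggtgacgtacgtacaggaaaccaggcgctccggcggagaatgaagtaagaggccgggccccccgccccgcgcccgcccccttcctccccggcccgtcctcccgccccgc
Bcl2l1: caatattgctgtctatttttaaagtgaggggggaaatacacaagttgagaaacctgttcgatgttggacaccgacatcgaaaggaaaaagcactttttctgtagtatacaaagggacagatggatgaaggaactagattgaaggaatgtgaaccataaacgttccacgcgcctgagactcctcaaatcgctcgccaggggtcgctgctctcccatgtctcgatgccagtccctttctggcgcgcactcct
Bcl2l11: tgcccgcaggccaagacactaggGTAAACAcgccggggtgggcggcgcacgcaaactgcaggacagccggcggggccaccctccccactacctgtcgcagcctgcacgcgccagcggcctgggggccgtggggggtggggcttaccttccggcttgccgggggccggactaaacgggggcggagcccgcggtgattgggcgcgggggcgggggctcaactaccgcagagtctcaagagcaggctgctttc
Bmf: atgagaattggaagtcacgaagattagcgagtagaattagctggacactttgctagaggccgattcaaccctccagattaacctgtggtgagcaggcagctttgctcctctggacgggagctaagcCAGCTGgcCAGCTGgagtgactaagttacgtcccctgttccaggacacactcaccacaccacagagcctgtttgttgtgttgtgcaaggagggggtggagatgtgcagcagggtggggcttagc

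Of the 10 members, 9 had at least 1 promoter entry in the table, with 15 entries between them; Pmaip1 is named only. CAGCTG stood in 3 of the 15 entries, which are the 3 starts of Bmf, against 13.0% of all 32851 promoters over the same length. In the Bmf stretch shown, its matches began 124 and 116 bases before the start. TGTTTAC stood in 1 entry, as its reverse GTAAACA 227 bases before the Bcl2l11 start shown, against 3.17% of all promoters. CCCNNGGG stood in 3 entries (Bcl2, 1 start of Bcl2l1, and Bid) against 11.8%, and CAGGTG in 1 (Bad) against 17.2%. A match describes the letters only and is no evidence of binding.

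Signals are log2 values of the scanner's processed intensity after quantile normalization over the 6 samples, and changes are those of limma with Benjamini-Hochberg adjustment over the 22133 probes kept (those well above background in each sample of 1 or more groups), called at an adjusted p under 0.05. All 21 member probes were kept, and the brightest stood for its gene. Each error of a change is the standard error (SE) of the fit, with n = 2 per group and 1 spread for all 3 groups, so the 3 comparisons share their samples and are not independent. The share of the 43379 spots that was well above background ran from 40.9% to 61.8% between samples. Replicates correlated across 12276 genes with r from 0.977 to 0.989, with genes not independent of each other. Nothing says that replicates came from separate cultures or animals, so p-values may measure a technical spread.

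The labels were set against marker genes. All 7 B lineage markers were well above background in both RAG1-/- samples, with summed linear signals of 908828 and 785680 against 2874 to 16550 in the other 4 samples. The highest of those 4 was E2A-/- replicate 1, whose B lineage sum was 16550 against 3227 in replicate 2. It was hybridised on the same array as RAG1-/- replicate 1, and EBF-/- replicate 1 on that of E2A-/- replicate 2. The 6 myeloid markers summed to 93125 and 99051 in E2A-/- and to 39880 and 40692 in EBF-/-. In RAG1-/- they summed to 4527 in replicate 1 and 48926 in replicate 2, which also carried more mast cell signal (218 against 2464 over 3 markers). That myeloid difference rested on Mpo (9.15 against 14.59) and Lyz2 (11.08 against 14.49). Csf1r and Fcgr3 were nearly equal, Itgam and Cd68 were lower in replicate 2, and the median of the list went from 9.20 to 8.68. The 4 measured T cell markers summed to 35017 and 33272 in EBF-/- cells, 11165 and 11648 in RAG1-/- cells, and 1761 and 2881 in E2A-/- cells. The EBF-/- and RAG1-/- sums rested nearly wholly on Lck and Thy1. Cd3e read 7.17 and 8.28 for E2A-/-, 8.10 and 6.42 for EBF-/-, and 6.75 and 6.67 for RAG1-/- cells. Gata3 was highest in EBF-/- cells (10.44 and 10.29) and not well above background in either RAG1-/- sample. The 4 measured NK markers summed to 325 to 502 in RAG1-/-, 7584 and 7486 in E2A-/-, and 10928 and 10933 in EBF-/- cells. All 4 were well above background in both EBF-/- samples. The E2A-/- sums rested nearly wholly on Klrd1 (12.86 and 12.83), and Gzma and Prf1 were not well above background in either E2A-/- sample. Of the erythroid and stromal lists only 2 of 4 and 1 of 6 genes were measured, with sums of at most 207. In bulk RNA, fewer cells of a type and less RNA per cell cannot be told apart, and the part of these other cells in the members' changes was not tested.

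Among the survival genes, Bcl2 and Bcl2l1 moved in opposite directions between pre-pro-B and pro-B cells. Bcl2 was high in both pre-pro-B groups and low in RAG1-/- pro-B cells, Bcl2l1 was the reverse, and at its brightest probe Mcl1 passed in no comparison.

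Bcl2, the founding survival gene of the family, had log2 signals of 13.15 and 13.31 for E2A-/-, 13.97 and 14.05 for EBF-/-, and 9.65 and 10.75 for RAG1-/- cells. No RAG1-/- sample overlapped the others, and the RAG1-/- samples were the farthest apart. Bcl2 was 13.8-fold lower in RAG1-/- than in EBF-/- cells (log2 change -3.79, SE 0.34, adjusted p = 0.00255) and 8.24-fold lower than in E2A-/- cells (-3.04, SE 0.33, adjusted p = 0.00343). RAG1-/- replicate 2, the sample with more Mpo, Lyz2 and mast cell signal, was the higher of the pair. Without that replicate the changes were -4.41 and -3.63, and without replicate 1 they were -3.20 and -2.42. These fits hold 1 RAG1-/- sample and so none of the RAG1-/- spread, and only the sizes are given. The higher Bcl2 signal of EBF-/- over E2A-/- cells (0.75, SE 0.33, adjusted p = 0.187) did not pass, although every EBF-/- sample lay above every E2A-/- sample.

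The other Bcl2 probes gave the same order of the groups. The brightest probe lies at the 5′ end of the probe span (chr1:108539940-108539999, mm8), another at chr1:108538280-108538339, and the probe farthest downstream at chr1:108365763-108365822. At the downstream probe the signals were 13.61 and 13.36 for E2A-/-, 14.79 and 14.64 for EBF-/-, and 7.87 and 9.34 for RAG1-/- cells, a change of -6.10 from EBF-/- to RAG1-/- (68.4-fold, SE 0.35, adjusted p = 0.00111). At the middle probe that change was -4.45 (SE 0.35, adjusted p = 0.00199). In EBF-/- against E2A-/- these probes were higher by 1.19 (SE 0.34) and 0.77 (SE 0.34), neither called.

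Bcl2l1, which encodes Bcl-xL, ran the other way. Its brightest probe read 9.33 and 8.70 for E2A-/-, 8.69 and 8.39 for EBF-/-, and 11.26 and 11.25 for RAG1-/- cells. Both RAG1-/- samples were well above the other 4. The rise was 6.50-fold over EBF-/- (2.70, SE 0.18, adjusted p = 0.00151) and 4.71-fold over E2A-/- cells (2.24, SE 0.18, adjusted p = 0.00165). A probe near the 5′ end (chr2:152520890-152520949, mm8) was not well above background in either EBF-/- sample and read 8.42 and 8.11 for RAG1-/- cells, which is at least 5.79-fold higher. Only the RAG1-/- group had each sample well above background there. The probe was thus kept through the group where it was high, and its call is no separate support. The last probe, at chr2:152521435-152521494, had dim samples in both pre-pro-B groups and passed in no comparison. Between the pre-pro-B groups the brightest probe differed by -0.46 (SE 0.18, adjusted p = 0.145).

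Mcl1, a short-lived survival protein needed by many progenitors, read 13.91 and 13.87 for E2A-/-, 13.93 and 14.07 for EBF-/-, and 14.11 and 13.93 for RAG1-/- cells at its brightest probe. EBF-/- and RAG1-/- samples overlapped, E2A-/- samples lay just below them, and no comparison passed (adjusted p from 0.299 to 0.901). The other Mcl1 probe read 13.20 and 12.86, 12.82 and 12.50, and 13.64 and 13.46 in the same order of groups. There RAG1-/- cells were higher than EBF-/- cells by 0.88 (SE 0.16, adjusted p = 0.0139) and were 0.53 above E2A-/- cells (SE 0.15, adjusted p = 0.0515). The probes thus disagree on whether Mcl1 rose from EBF-/- to RAG1-/- cells.

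**Figure D1:**
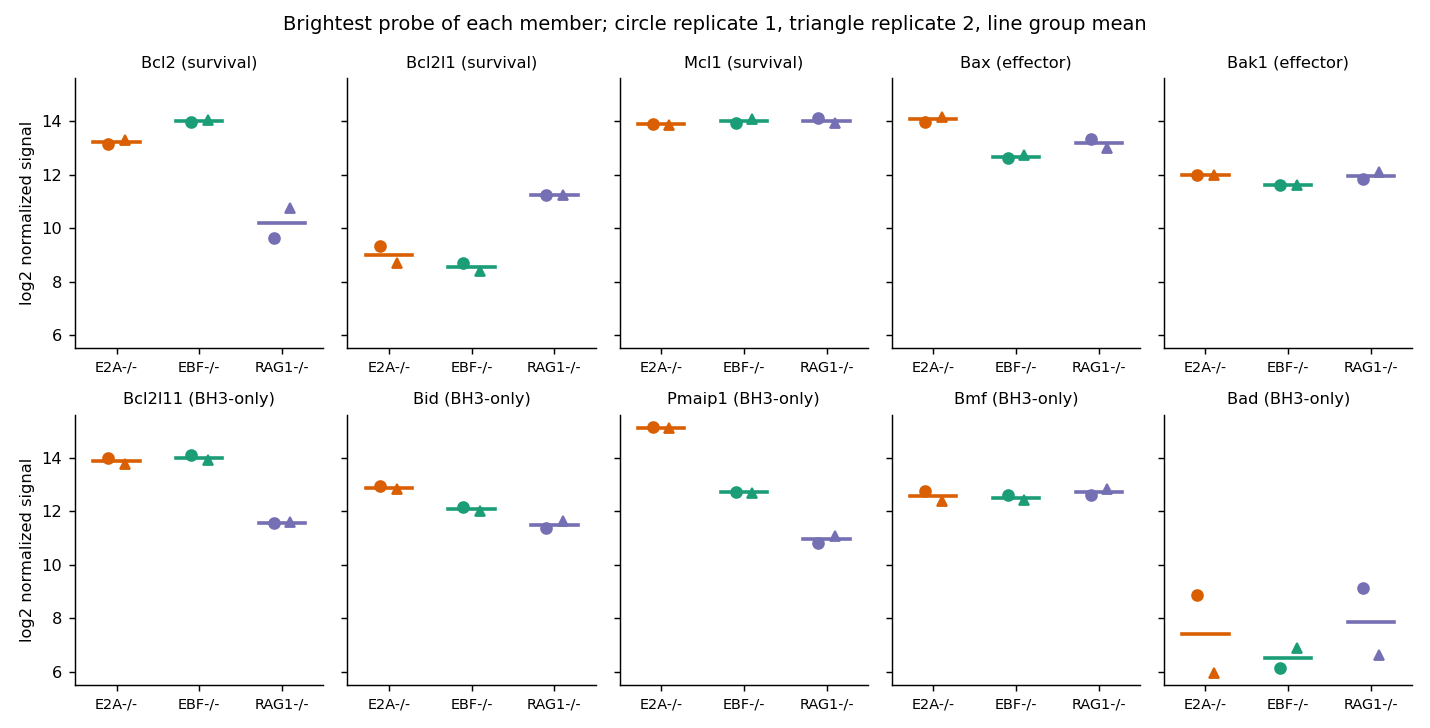
Log2 normalized signal (vertical axis) of the brightest probe of each member in E2A-/- and EBF-/- pre-pro-B and RAG1-/- pro-B cells, with circles for replicate 1, triangles for replicate 2 and lines for group means. Pmaip1 falls from 15.14 in E2A-/- through 12.73 in EBF-/- to 10.83 in RAG1-/- cells (replicate 1), the RAG1-/- samples are the lowest for Bcl2 and Bcl2l11 and the highest for Bcl2l1, and the Bad replicates lie far apart.

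Of the effector genes, Bax was called in all 3 comparisons and Bak1 in none. Bax read 13.97 and 14.16 for E2A-/-, 12.64 and 12.72 for EBF-/-, and 13.35 and 13.00 for RAG1-/- cells, so that the 3 groups did not overlap and EBF-/- cells were lowest. Bax fell by 1.38 on the log2 scale from E2A-/- to EBF-/- cells (2.60-fold, SE 0.09, adjusted p = 0.00345) and was 1.84-fold lower in RAG1-/- than in E2A-/- cells (-0.88, SE 0.09, adjusted p = 0.00326). RAG1-/- cells exceeded EBF-/- cells by 0.50 (SE 0.10, adjusted p = 0.0178). That last call was lost without EBF-/- replicate 1 (log2 change 0.59) or replicate 2 (0.40). Those fits hold 1 EBF-/- sample, and fewer genes were called in them across the whole array too.

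Bak1, the second effector, read 11.99 and 11.99, 11.62 and 11.62, and 11.85 and 12.09 for E2A-/-, EBF-/- and RAG1-/- cells. EBF-/- samples were lowest, but neither -0.37 against E2A-/- (SE 0.10, adjusted p = 0.0635) nor 0.36 from EBF-/- to RAG1-/- (SE 0.10, adjusted p = 0.0505) passed. Its second probe read 8.45 and 8.48, 7.80 and 7.99, and 8.20 and 8.07, and passed in no comparison.

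Among the BH3-only genes, Pmaip1, Bid and Bcl2l11 were lowest in pro-B cells, while Bmf and the brightest Bad probe passed in no comparison. Pmaip1 encodes Noxa, which mainly counters Mcl1. Its single probe read 15.14 and 15.13 for E2A-/-, 12.73 and 12.69 for EBF-/-, and 10.83 and 11.09 for RAG1-/- cells. The 3 groups were fully separate, and Pmaip1 was called lower in each comparison. It was 5.40-fold lower in EBF-/- than in E2A-/- cells (-2.43, SE 0.10, adjusted p = 0.00214), 3.36-fold lower in RAG1-/- than in EBF-/- cells (-1.75, SE 0.10, adjusted p = 0.00107) and 18.1-fold lower in RAG1-/- than in E2A-/- cells (-4.18, SE 0.10, adjusted p = 0.000289).

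Bid, which links death receptors to mitochondria once caspase-8 cleaves it, read 12.95 and 12.83 for E2A-/-, 12.16 and 12.03 for EBF-/-, and 11.38 and 11.64 for RAG1-/- cells. Again no groups overlapped. The steps were -0.80 from E2A-/- to EBF-/- (SE 0.08, adjusted p = 0.00745) and -0.59 from EBF-/- to RAG1-/- (SE 0.09, adjusted p = 0.00843), and RAG1-/- cells were 2.61-fold below E2A-/- cells (-1.38, SE 0.08, adjusted p = 0.000940). The first of these calls was lost when any E2A-/- or EBF-/- sample was left out (log2 changes from -0.84 to -0.76). The call of RAG1-/- against EBF-/- was lost without EBF-/- replicate 1 (-0.62) or replicate 2 (-0.55). These fits hold 1 sample in a group, and fewer genes were called in them across the whole array too.

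Bcl2l11, which encodes Bim, read 13.99 and 13.79 for E2A-/-, 14.11 and 13.91 for EBF-/-, and 11.58 and 11.59 for RAG1-/- cells at its brightest probe. The pre-pro-B groups overlapped and both RAG1-/- samples lay far below them. The gene was 5.38-fold lower in RAG1-/- than in EBF-/- cells (-2.43, SE 0.09, adjusted p = 0.000533) and 4.94-fold lower than in E2A-/- cells (-2.30, SE 0.09, adjusted p = 0.000440). A second probe, which spans 127838598 to 127849693 on chromosome 2 (mm8), read 8.98 and 9.06, 8.37 and 8.33, and 7.83 and 7.67. It was called lower in all 3 comparisons, by -0.66 (EBF-/- against E2A-/-, SE 0.15, adjusted p = 0.0415), -0.60 (RAG1-/- against EBF-/-, SE 0.15, adjusted p = 0.0354) and -1.26 (RAG1-/- against E2A-/-, SE 0.15, adjusted p = 0.00406). The probe nearest the 5′ end changed by -0.42, -0.19 and -0.60 in these comparisons and passed in none. The Bcl2l11 probes thus differ in size and in call: 2 of 3 were called lower in RAG1-/- cells, and at the probe nearest the 5′ end RAG1-/- and EBF-/- samples overlapped.

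Bmf, a BH3-only protein known to sit on the cytoskeleton until released, read 12.75 and 12.39 for E2A-/-, 12.60 and 12.42 for EBF-/-, and 12.62 and 12.84 for RAG1-/- cells. Its largest change, 0.22 in RAG1-/- over EBF-/- cells (SE 0.09), had an adjusted p of 0.114. The other Bmf probes had samples that were not well above background and passed in no comparison. Bad, which growth factor signalling silences by phosphorylation, could not be placed. Its brightest probe read 8.88 and 5.98 for E2A-/-, 6.16 and 6.88 for EBF-/-, and 9.13 and 6.62 for RAG1-/- cells, so the replicate SD was 2.05 in E2A-/- and 1.77 in RAG1-/- cells (n = 2) and the SE of each change was 1.25 to 1.28. All groups overlapped. The high readings, 8.88 and 9.13, are those of E2A-/- replicate 1 and RAG1-/- replicate 1, which shared an array; its part in them was not tested. A second probe that carries the name Bad lies on the opposite strand (chr19:7018148-7018207, mm8, minus strand), read 7.04 and 7.20, 7.42 and 7.64, and 7.00 and 6.55, and was called lower in RAG1-/- than in EBF-/- cells (-0.76, SE 0.21, adjusted p = 0.0483).

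By brightest probe, 3 of the 10 members were called in EBF-/- against E2A-/- cells, all lower (Bax, Bid and Pmaip1), where 24.9% of the 12276 genes with a kept probe and a RefSeq name were called. In RAG1-/- against EBF-/- cells 6 of 10 were called, 2 higher and 4 lower, where the background was 43.9%. In RAG1-/- against E2A-/- cells 6 of 10 were called, 1 higher (Bcl2l1) and 5 lower, where it was 47.1%. Of all genes, 11.9%, 22.7% and 23.6% were called lower and 13.0%, 21.1% and 23.4% higher in these comparisons. The median change of the 10 members was -0.42, 0.12 and -0.45, beside medians of -0.00, 0.04 and 0.03 over all genes. The first count depended on samples outside its own comparison: without RAG1-/- replicate 1, and without RAG1-/- replicate 2, it was 6 members (1 higher, 5 lower), with Bcl2 (0.78), Bcl2l1 (-0.48) and Bak1 (-0.37) added (adjusted p from 0.00385 to 0.0481). Over all 12276 genes the calls rose from 3060 to 5173 and 5183 in those fits, so the members' count moved with the array's. The same count of members was reached with the replicate number as a block, where 5062 genes were called. Replicate 1 was in Cy5 for E2A-/- and EBF-/- but in Cy3 for RAG1-/- cells. Dye and replicate terms together thus leave none of the RAG1-/- spread in the error, and this fit is no separate check. The part that the spread of the RAG1-/- samples, which enters the shared error of the main fit, has in the count was not tested.

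**Figure D2:**
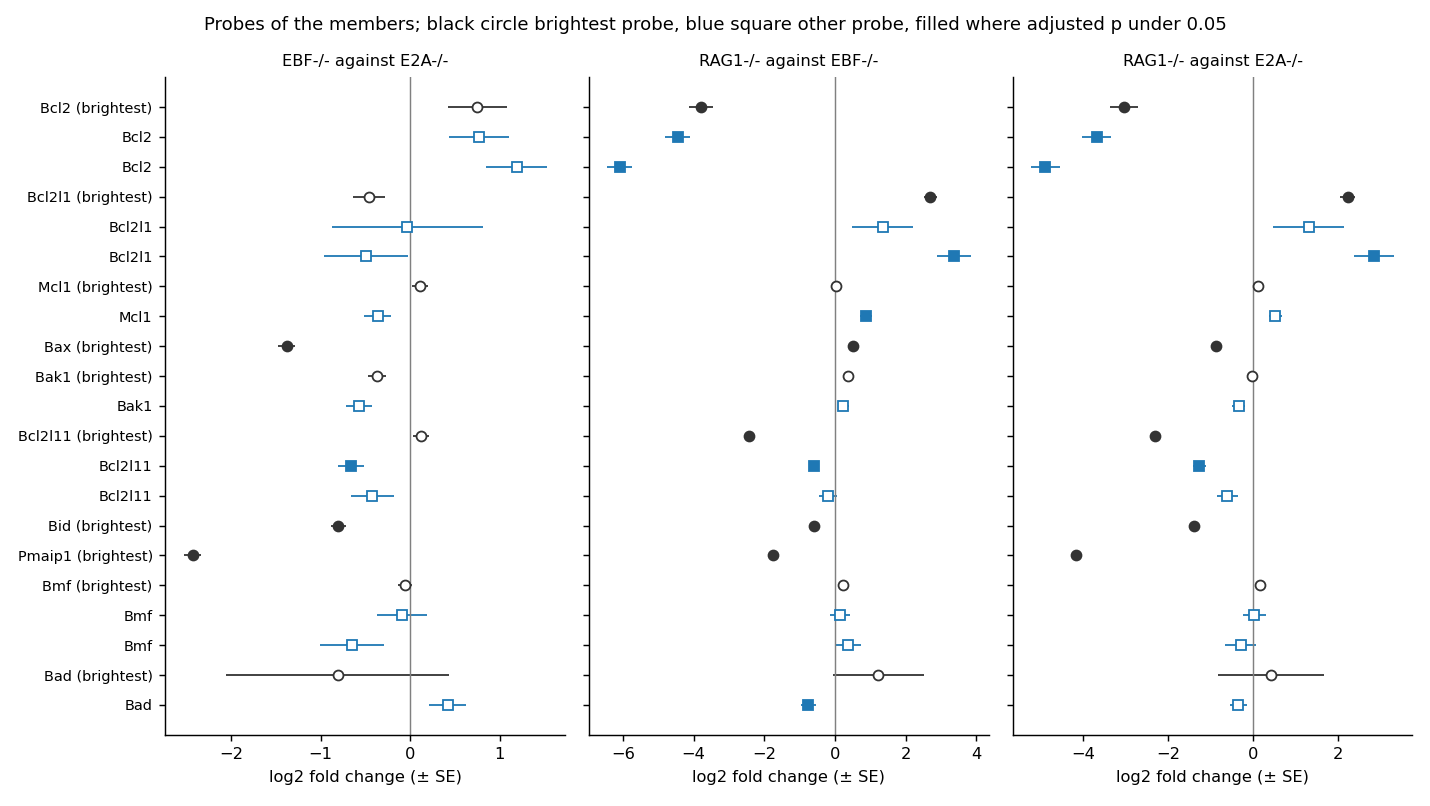
Log2 fold change (horizontal axis, with SE bars) of all 21 member probes in the 3 comparisons, ordered as survival genes, effectors and BH3-only genes. Filled symbols mark an adjusted p under 0.05: all 3 Bcl2 probes are filled on the left in both RAG1-/- comparisons, with the largest change at -6.10.

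Genes whose brightest probe followed Bcl2 most closely over the 6 samples, by root mean square log2 difference after centring, were Enho (0.17), Selenbp2 (0.18) and Serpinb6b (0.19). Those closest to Bcl2l11 were Smagp (0.10), Nol4l (0.11) and the integrin gene Itgal (0.12). Itgal, for example, read 11.89 and 11.83 for E2A-/-, 12.10 and 11.82 for EBF-/-, and 9.24 and 9.59 for RAG1-/- cells.

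The rest of the family was measured through 12 of 17 listed genes. In EBF-/- against E2A-/- cells 1 was called higher and 4 lower (median -0.28), in RAG1-/- against EBF-/- cells 2 and 5 (median 0.19), and in RAG1-/- against E2A-/- cells 2 and 4 (median 0.14). Of all 12276 genes, 24.9%, 43.9% and 47.1% were called in these comparisons, which is the background for this list and each list below. Bcl2a1b and Bcl2a1c, near-identical copies of the survival gene A1 whose probes cannot be assumed to separate them, were lower in RAG1-/- cells. The Bcl2a1b probe read 12.60 and 12.81 for E2A-/-, 10.07 and 9.92 for EBF-/-, and 6.52 and 3.93 for RAG1-/- cells, a change of -7.44 from E2A-/- to RAG1-/- (SE 0.69, adjusted p = 0.00231). Its value of 3.93 lies below 4.74, the lowest signal well above background in RAG1-/- replicate 2, so the size of that change is uncertain. The Bcl2a1c probe was not well above background in RAG1-/- cells, at least 24.9-fold below E2A-/- cells, and differed by -3.13 between EBF-/- and E2A-/- cells (SE 0.26). In EBF-/- replicate 1 it read 6.23, below 6.25, the lowest signal well above background in that sample. This probe was thus kept through E2A-/- cells alone, the group where it was highest. Bok, a relative of Bax and Bak1, read 10.08 and 11.35 for RAG1-/- cells and was at least 31.7-fold above EBF-/- cells, where it was not well above background. In E2A-/- replicate 2 it read 6.36, below 6.86, the lowest signal well above background in that sample. Its probe was thus kept through RAG1-/- cells alone, the group where it was high, so its call is no separate support. Bcl2l14 was lower in EBF-/- than in E2A-/- cells (-1.72, SE 0.27, adjusted p = 0.0192), and Bnip3l, known for removal of mitochondria, was higher there (0.86, SE 0.10, adjusted p = 0.00898).

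Downstream of the family, all 15 listed genes of the apoptosome and caspases were measured. In the same order of comparisons 3, 4 and 3 were called higher and 2, 4 and 6 lower, with medians of -0.09, -0.18 and -0.16. Over all genes 24.9%, 43.9% and 47.1% were called in either direction. Cycs, which encodes cytochrome c, was lower in EBF-/- than in E2A-/- cells (-1.69, SE 0.16, adjusted p = 0.00577), and the executioner gene Casp6 was lower in RAG1-/- than in EBF-/- cells (-2.20, SE 0.09, adjusted p = 0.000673). Apaf1, the scaffold of the apoptosome, was lower in EBF-/- than in E2A-/- cells (-0.65, SE 0.13, adjusted p = 0.0305) and higher in RAG1-/- than in EBF-/- cells (0.71, SE 0.13, adjusted p = 0.0147).

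Of the 6 inhibitors of apoptosis, 1, 3 and 2 were called higher and 0, 1 and 1 lower in the same order of comparisons (medians -0.02, 0.38 and 0.36). The background for this list and the next was again 24.9%, 43.9% and 47.1% of all genes called. Birc2 was higher in each (0.57, 0.98 and 1.55, adjusted p = 0.0240, 0.00358 and 0.00108), and Naip5, a sensor of bacterial proteins, was lower in RAG1-/- than in EBF-/- (-2.37, SE 0.26, adjusted p = 0.00390) and E2A-/- cells (-2.66, SE 0.25, adjusted p = 0.00241). Of 8 measured death receptor and adaptor genes, 0, 1 and 2 were called higher and 1, 2 and 2 lower (medians -0.08, 0.21 and 0.16). The TNF receptor gene Tnfrsf1a was lower in RAG1-/- cells, by -3.90 against EBF-/- (SE 0.26, adjusted p = 0.00149) and -4.07 against E2A-/- (SE 0.26, adjusted p = 0.00102).

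Of 16 genes from the IL-7 receptor to survival kinases, 5, 1 and 4 were called higher and 1, 4 and 4 lower (medians 0.26, -0.08 and 0.04). For this list and those that follow, 24.9%, 43.9% and 47.1% of all genes were called. Il7r was higher in EBF-/- (1.61, SE 0.15, adjusted p = 0.00594) and RAG1-/- (1.62, SE 0.15, adjusted p = 0.00238) than in E2A-/- cells. Pim2, a survival kinase, was higher in EBF-/- than in E2A-/- cells (1.90, SE 0.19, adjusted p = 0.00712) and lower in RAG1-/- than in EBF-/- cells (-1.79, SE 0.20, adjusted p = 0.00416). Of 11 measured transcription factors known to act on the family, 3, 2 and 4 were called higher and 0, 1 and 1 lower (medians -0.06, 0.06 and 0.01). Foxo1 was higher in RAG1-/- than in EBF-/- (5.52, SE 0.42, adjusted p = 0.00189) and E2A-/- cells (6.13, SE 0.41, adjusted p = 0.00117), while Myc was lower (-0.93, adjusted p = 0.0276, and -1.70, adjusted p = 0.00470). Of 12 measured turnover factors and binding partners, 0, 3 and 2 were called higher and 3, 4 and 5 lower (medians -0.19, -0.01 and -0.26). Ppp3ca, a calcineurin subunit that can dephosphorylate Bad, was lower in EBF-/- (-1.21, SE 0.08, adjusted p = 0.00341) and RAG1-/- (-1.26, SE 0.08, adjusted p = 0.00108) than in E2A-/- cells.

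**Figure D3:**
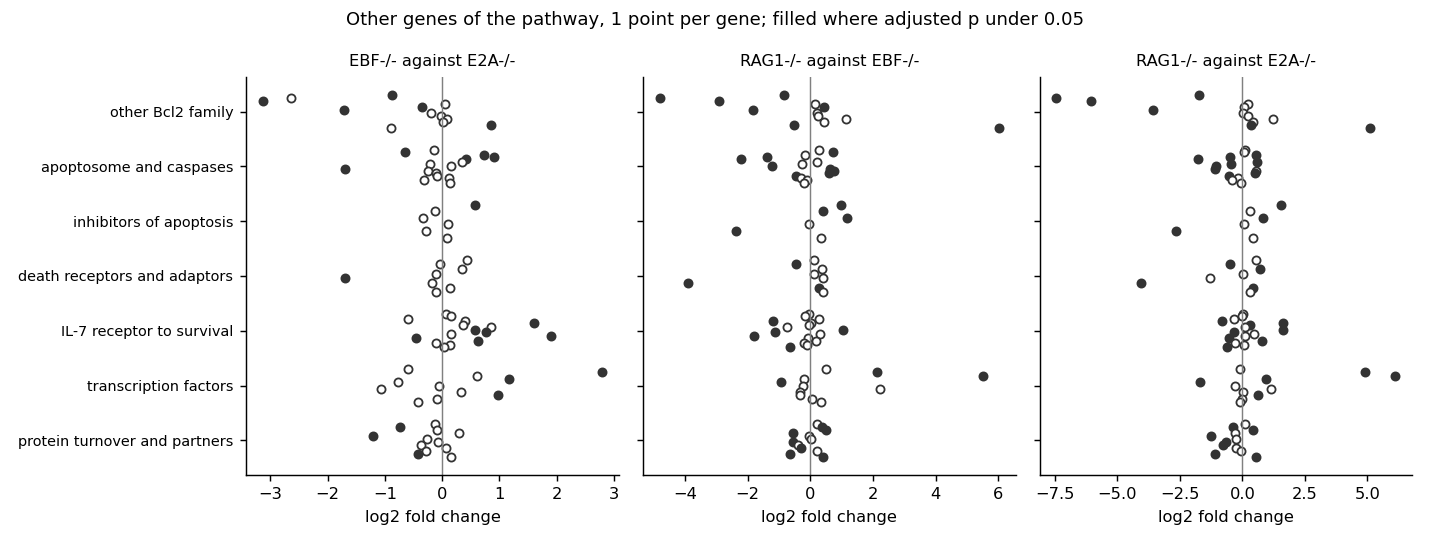
Log2 fold change (horizontal axis) of the measured genes of the 7 lists in the 3 comparisons, with 1 point per gene, filled where the adjusted p was under 0.05. Points lie on both sides of 0 in each list, and the widest spread in RAG1-/- against E2A-/- cells runs from -7.44 (Bcl2a1b) to 6.13 (Foxo1), the first resting in part on a dim reading.

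Chromatin peaks are given on mm8 as the authors listed them, and their score, the authors' own, is used only to rank a peak within its list. Each condition had 1 library, so no difference between peak lists has a replicate check or a test. Windows of 50 kb around the probes ran from 100060 to 274237 bp, the longest at Bcl2, and held probes of up to 16 other genes (at Bad), so a peak in a window need not belong to the member. The control list had no peak within 50 kb of a member (1.37% of the 14608 named array genes with a kept probe had 1, which is the background used for all lists), and no member peak overlapped a control peak.

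E2A peaks stood near 8 of the 10 members in EBF-/- cells, against 38.6% of genes, and near all 10 in RAG1-/- cells, against 58.6%. Bid and Pmaip1 were the members with none in EBF-/- cells, and each had 1 in RAG1-/- cells. Of 22 E2A peaks in EBF-/- cells, 11 overlapped an E2A peak of RAG1-/- cells, and 11 of the 44 in RAG1-/- cells overlapped back. Over the whole lists these shares were 44.7% and 17.1%. EBF1 peaks in RAG1-/- cells lay near 4 members (Bcl2, Bak1, Bcl2l11 and Bmf), against 13.3% of genes. The EBF1 count was 1 with windows of 25 kb and 2 in the higher-scoring part of the list, settings for which no share of all genes was taken. FOXO1 peaks lay near 4 (Bcl2, Bcl2l1, Bcl2l11 and Bmf), against 16.0%. Of the 4 EBF1 peaks 3 overlapped an E2A peak, as did 3 of the 5 FOXO1 peaks, and no EBF1 peak overlapped a FOXO1 peak. Over the whole lists 48.6% of EBF1 and 42.0% of FOXO1 peaks overlapped an E2A peak.

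The marks of open and active chromatin stood near nearly all members, as near most genes. H3K4me2, H3K4me3 and H3K9/14ac peaks lay near all 10 members in both cell types, against 90.7%, 77.3% and 84.5% of genes in EBF-/- and 91.1%, 84.3% and 83.9% in RAG1-/- cells. H3K4me1, a mark of enhancers, lay near 9 members in each, against 51.9% and 86.5%. CTCF, known for chromatin loops and mapped in RAG1-/- cells, lay near all 10, against 91.6%, and its highest-ranked member peak was near Bmf at chr2:118178470-118178669 (score 86, top 0.317%). H3K27me3, a mark of Polycomb repression, lay near 2 members in EBF-/- cells (Bcl2l1 and Bcl2l11), against 9.28% of genes, and near 4 in RAG1-/- cells (Bcl2l11, Bmf, Mcl1 and Bax), against 16.0%. In the higher-scoring part of each list both H3K27me3 counts were 1, and with 25 kb they were 1 and 4, again with no share of all genes taken. Of 28 H3K4me3 peaks near members in EBF-/- cells 24 overlapped 1 in RAG1-/- cells, as did 96.2% of the whole list.

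**Figure D4:**
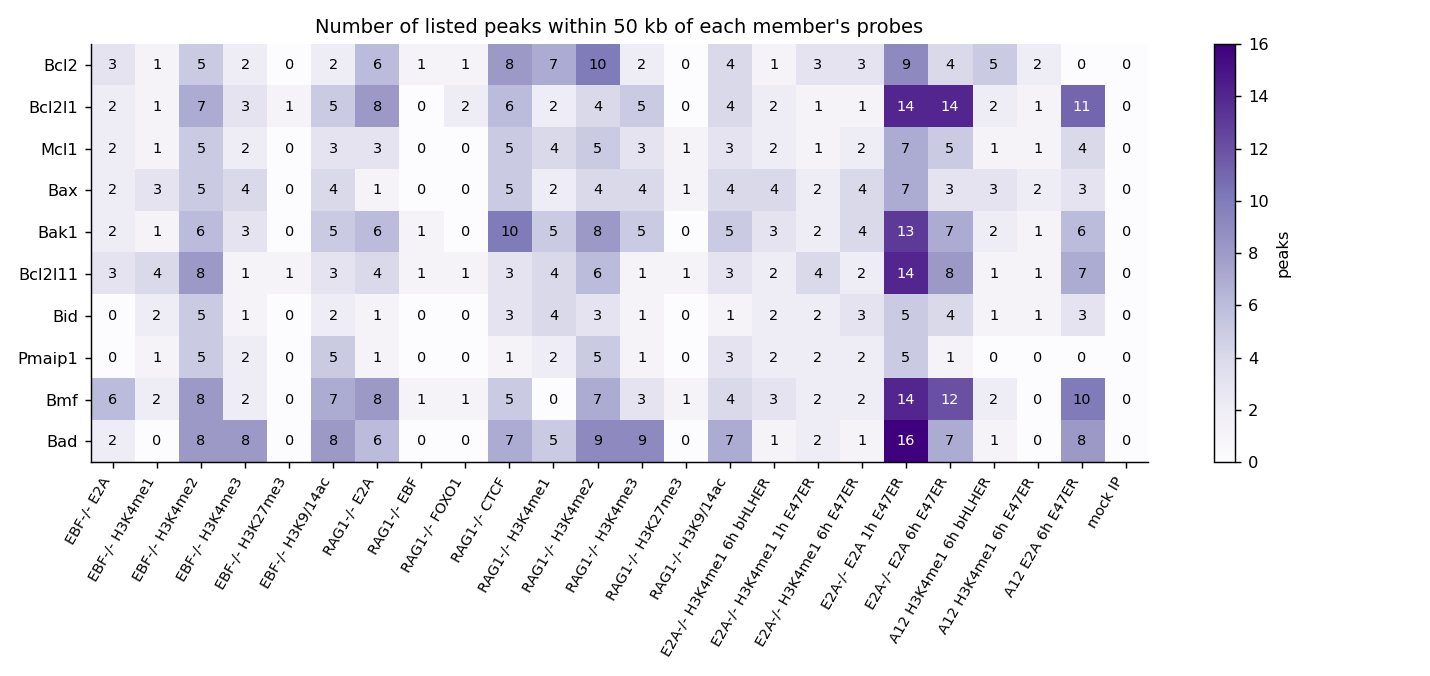
Number of listed peaks within 50 kb of the probes of each member (rows) in each of the 24 peak lists (columns), with darker cells for more peaks. Counts reach 16 (Bad after 1 h of E47-ER), and the control column holds 0 throughout.

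Bcl2l1, higher in RAG1-/- than in both pre-pro-B groups, held 4 high-ranked E2A peaks of RAG1-/- cells within its probe span. They lay at chr2:152481089-152481288 (score 68, in the top 1.30% of the list), chr2:152486060-152486259 (score 70, top 1.14%), chr2:152507277-152507476 (score 49, top 4.21%) and chr2:152507797-152507996 (score 54, top 3.07%). In EBF-/- cells the first and last of these places had peaks with a score of 14, in the top 54.0% of that list. A FOXO1 peak at chr2:152485811-152485886 (score 20, top 4.38%) lay beside the E2A peak of score 70, and a weak FOXO1 peak (score 5) overlapped the E2A peak of score 54. H3K4me3, a mark of active promoters, had a peak centred 595 bp inside the 5′ end of the probe span in RAG1-/- cells (score 356, top 0.629%). In EBF-/- cells the nearest H3K4me3 peak began 692 bp upstream of that end (score 41, top 27.5%). In the whole Bcl2l1 window, 2 of 3 EBF-/- and 2 of 5 RAG1-/- H3K4me3 peaks overlapped the other list. No EBF1 peak was listed there, and H3K27me3 was listed in EBF-/- cells alone, 43527 bp downstream of the probes.

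Bcl2, lower in RAG1-/- cells like Bcl2l11, Bid and Pmaip1, had no E2A, EBF1 or FOXO1 peak in the top 10% of a list. Its 6 E2A peaks in RAG1-/- cells had scores of 10 to 25, the highest at chr1:108490577-108490776 (top 19.3%). One at chr1:108383130-108383329 overlapped the EBF1 peak at chr1:108383153-108383352 (score 12, top 47.9%), and the FOXO1 peak stood at chr1:108465373-108465448 (score 8, top 57.0%). At the 5′ end, EBF-/- cells had an E2A peak at chr1:108540007-108540206 (score 11) that the RAG1-/- list lacked. An H3K4me3 peak in EBF-/- cells was centred 32 bp inside that end (score 51, top 10.4%), and in RAG1-/- cells a peak began 1402 bp upstream of it (score 130, top 57.1%). Each list held 2 H3K4me3 peaks in the Bcl2 window, and 1 of each overlapped the other list. H3K27me3 was listed near Bcl2 in neither cell type.

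Bcl2l11 held the same 3 E2A peaks in both cell types, and 1 more in RAG1-/- cells. The peak upstream of the probes, at chr2:127817161-127817360 in EBF-/- (score 19, top 25.1%) and chr2:127817147-127817346 in RAG1-/- cells (score 17, top 36.2%), overlapped a FOXO1 peak at chr2:127817224-127817299 (score 13, top 14.6%). An H3K4me3 peak stood between that place and the probes in both lists, with a score of 76 in EBF-/- (top 0.430%) and 278 in RAG1-/- cells (top 8.69%). H3K9/14ac, an acetylation of active chromatin, was in the top 0.154% in EBF-/- and the top 15.7% in RAG1-/- cells at the same place. H3K27me3 was listed on the upstream side in both (score 15, top 82.1%, in EBF-/- and score 37, top 43.6%, in RAG1-/- cells). The EBF1 peak, at chr2:127785693-127785892, had the lowest score of its list (9).

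Bmf, whose RNA passed in no comparison, had the highest-ranked E2A peak of any member in RAG1-/- cells, at chr2:118182798-118182997 (score 93, top 0.329%), overlapped by a FOXO1 peak (score 8, top 57.0%). The matching EBF-/- peak, at chr2:118182846-118183045, was in the top 2.49% (score 45). An E2A peak at chr2:118190508-118190707 (score 35, top 9.90%) overlapped the EBF1 peak at chr2:118190500-118190699 (score 11, top 60.2%), and a neighbour at chr2:118191149-118191348 (score 48, top 4.46%) was also in the EBF-/- list (score 57, top 1.26%). Just upstream of the probes E2A had a score of 60 in RAG1-/- (top 2.14%) and 13 in EBF-/- cells (top 65.2%).

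**Figure D5:**
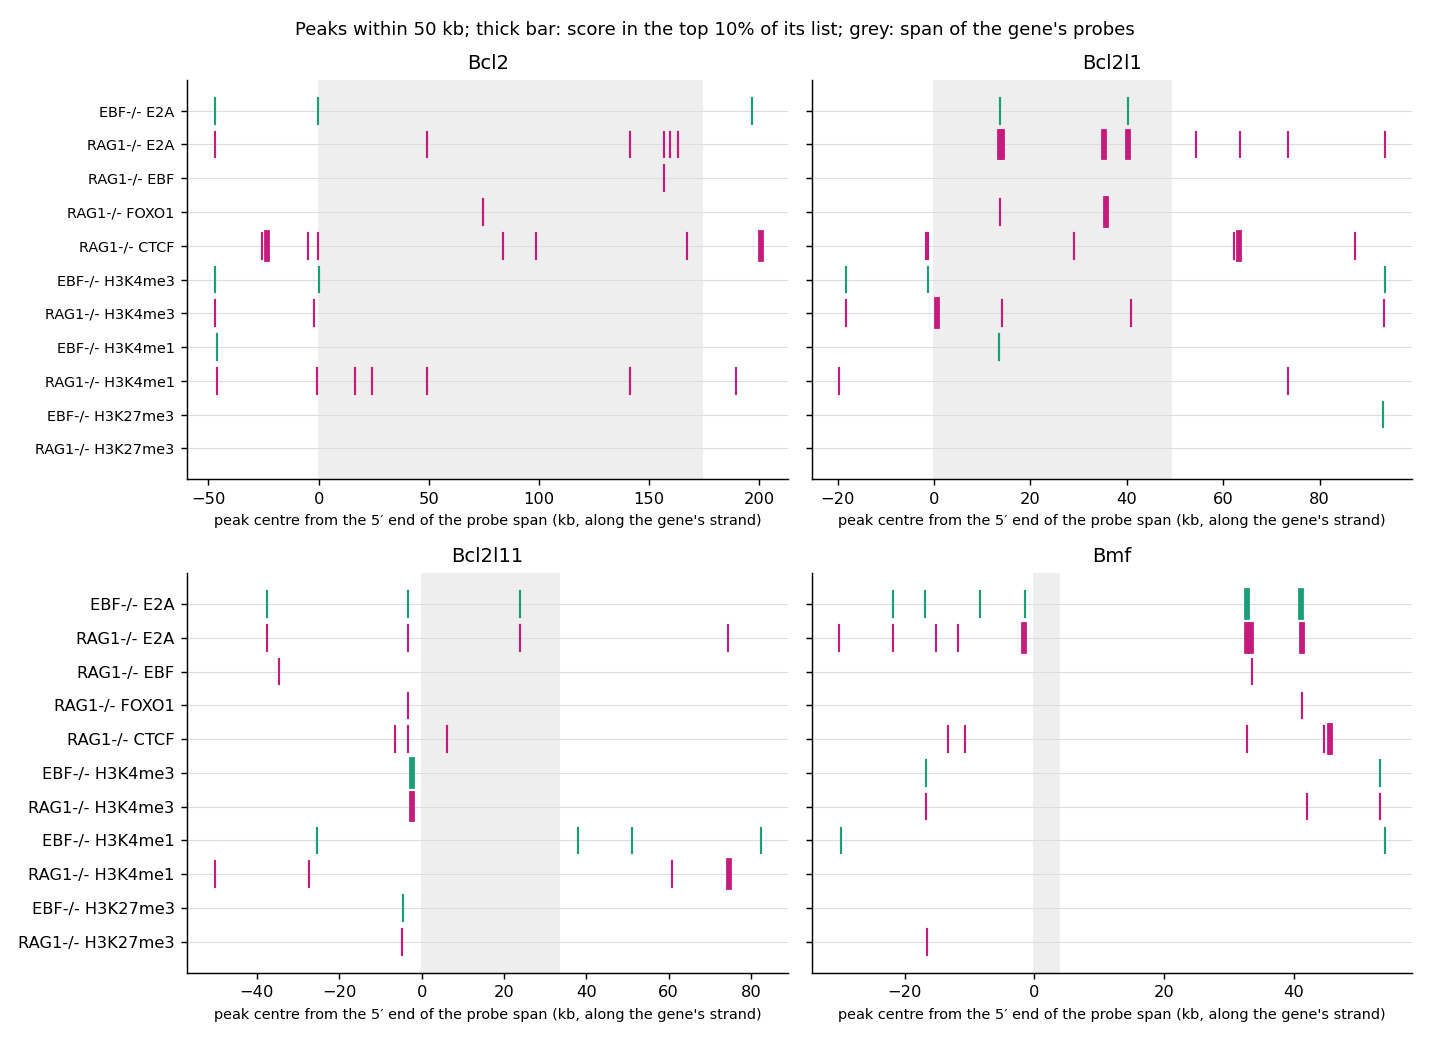
Peaks around Bcl2, Bcl2l1, Bcl2l11 and Bmf by distance in kb of the peak centre from the 5′ end of the probe span (horizontal axis), for 11 lists from EBF-/- (green) and RAG1-/- cells (pink); thick bars mark scores in the top 10% of a list and grey the probe span. The thick E2A bars of RAG1-/- cells stand at Bcl2l1 and Bmf, while the Bcl2 window has thin E2A bars alone.

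The other members were as follows. At Mcl1 the lists did not share an E2A peak: EBF-/- cells had peaks at chr3:95744110-95744309 (score 24, top 14.0%) and chr3:95744906-95745105 (score 13, top 65.2%) beside the promoter mark, and RAG1-/- cells had 3 downstream of the probes, the highest at chr3:95754083-95754282 (score 44, top 5.72%). The H3K4me3 peak of Mcl1 was high-ranked in both (top 3.08% in EBF-/- and 1.89% in RAG1-/- cells). Bak1 had an EBF1 peak at chr17:26710775-26710974 (score 10, top 77.1%) that overlapped an E2A peak (score 18, top 33.2%). Bax had 1 E2A peak in RAG1-/- cells (score 10) and 2 in EBF-/- cells (scores 11 and 14). The Bid E2A peak of RAG1-/- cells, at chr6:120896145-120896344 (score 21, top 25.9%), lay 37021 bp upstream of its probe. Around Bad, E2A peaks reached a score of 36 in RAG1-/- cells (top 9.42%), 40176 bp upstream of its probes.

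E47-ER was used to follow E2A after it is switched on. It is E47, an E2A protein, fused to the ligand-binding part of the estrogen receptor and delivered by retrovirus into cells then enriched by a human CD25 tag, and 1 µM tamoxifen after 21 h of culture activates it. In E2A-/- pre-pro-B cells all 10 members had an E2A peak after 1 h, against 77.0% of genes, and all 10 after 6 h, against 62.9%. The members held 104 peaks after 1 h and 65 after 6 h, and 56 of each overlapped the other list, as did 46.3% and 80.7% of the whole lists of 26792 and 15386 peaks. In A12, an E2A-/- T cell line labelled double-positive, 8 of 10 members had a peak after 6 h, against 64.8%, with none at Bcl2 or Pmaip1.

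Of the 65 member peaks of E2A-/- cells at 6 h, 15 overlapped an E2A peak of EBF-/- cells, 21 overlapped 1 of RAG1-/- cells and 34 overlapped 1 of A12 cells, beside 14.4%, 20.3% and 46.1% of the whole list. The following are single places chosen after their values were seen. The strongest Bcl2l1 site of RAG1-/- cells was in the A12 list at chr2:152486051-152486250 (score 33, top 2.45%). At Bcl2l11, a peak at chr2:127847574-127847773 was in the top 0.637% in E2A-/- cells after 6 h (score 43) and one at chr2:127847607-127847806 in the top 3.13% in A12 cells (score 31), a place with no E2A peak in EBF-/- or RAG1-/- cells. The distal Bcl2l11 site was in the top 1.58% after 1 h (chr2:127782863-127783062, score 50), and the place that FOXO1 shared in RAG1-/- cells was in the top 4.37% (chr2:127817187-127817386, score 38). The site just upstream of Bmf was present after 1 h (chr2:118225594-118225793, score 42, top 3.12%) and after 6 h (chr2:118225591-118225790, score 29, top 3.29%). At the 5′ end of Bcl2, a peak was listed after 1 h (score 18, top 26.1%) and 6 h (score 8, top 65.1%). Pmaip1 had 5 peaks after 1 h and 1 after 6 h.

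H3K4me1 was also mapped after E47-ER and after bHLH-ER, a truncated form without the activation domains. In E2A-/- cells all 10 members had an H3K4me1 peak with bHLH-ER at 6 h, against 77.7% of genes, with E47-ER at 1 h, against 78.5%, and with E47-ER at 6 h, against 65.6%. In A12 cells 9 members had a peak with bHLH-ER, against 55.6%, and 7 with E47-ER, against 51.3%. With windows of 25 kb these counts were 8 and 3, for which no share of all genes was taken. Of 22 member peaks with bHLH-ER in E2A-/- cells, 14 overlapped 1 with E47-ER at 6 h, beside 33.5% of the whole list, and of 18 in A12 cells 5 did, beside 45.7%. A Bcl2l1 peak at chr2:152448092-152449091 was in the top 0.353% after 1 h of E47-ER, and the matching bHLH-ER peak was in the top 4.64%.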

How the data were processed

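The members, gene lists and tests were chosen with earlier results of these data known. Per the file headers, the authors ran Agilent Feature Extraction 9.5.3.1, which subtracted background and dye-normalized the intensity values deposited. The 6 samples sat on 4 two-colour arrays, each group in both dyes, and each sample was read from its own channel. Here log2 processed signals were quantile normalized and averaged per probe. Then limma 3.58.1 (R 4.3.3) fitted all 6 samples with terms for group and dye, a trended prior and 2 residual degrees of freedom. The array was a random block, with a correlation of 0.0824 that was estimated with terms for group alone. The fit was tested on simulated data. Named genes were all members, the 3 genes closest to Bcl2 and to Bcl2l11, and, per pathway list, direction and comparison, at most 2 called genes with the largest change, of which some are given. Peak lists (HOMER, mm8, per the submitters' processing notes) carry a score deposited by the authors, with no unit stated. A gene's place is the mm8 span of its probes. Peaks overlapping by at least 1 bp were counted as shared. The second channels of 2 arrays were not analysed here. The result of 1 gene of the caspase list is not reported here.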

Additional observations from a re-analysis of the deposited data

How the results depend on the processing

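With 1 sample left out at a time, the count of members called ranged from 2 to 6 in EBF-/- against E2A-/- cells, from 4 to 7 in RAG1-/- against EBF-/- cells and from 6 to 7 in RAG1-/- against E2A-/- cells. Leaving out either RAG1-/- replicate gave 6 in the first comparison, where 3 were called with all samples. Scaling to the 75th percentile, normexp background, no filter on dim probes, no dye term, no array block, 1 probe per gene and an adjusted p of 0.01 left the counts at 3, at 5 to 7 and at 6. With 1 sample left out, these members without a call reversed: Bad ranged from -3.13 to 1.39 in EBF-/- against E2A-/- cells, from -0.48 to 3.04 in RAG1-/- against EBF-/- cells and from -1.77 to 2.74 in RAG1-/- against E2A-/- cells (called at 2.74, without E2A-/- replicate 1, adjusted p = 0.0367). Bmf ranged from -0.14 to 0.02 in EBF-/- against E2A-/- cells, Mcl1 from -0.04 to 0.08 in RAG1-/- against EBF-/- cells and Bak1 from -0.13 to 0.10 in RAG1-/- against E2A-/- cells, where Bak1 was 0.01 with 75th percentile scaling. Bak1 passed in RAG1-/- against EBF-/- cells under normexp, no dye term and 1 probe per gene (adjusted p from 0.0437 to 0.0487). It also passed there with the replicate number as a block (adjusted p = 0.0123). Its change was 0.47 without RAG1-/- replicate 1 and 0.24 without replicate 2. Members with a peak came to 194 of 240 gene and list pairs, and to 169 with 25 kb, 200 with 100 kb, 174 for the higher-scoring part of each list and 193 for whole peaks inside the window. The causes were not tested.

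Deviations of same-numbered samples correlated at -0.41 (E2A-/- and EBF-/-), 0.19 (E2A-/- and RAG1-/-) and 0.02 (EBF-/- and RAG1-/-). E2A-/- replicate 2 shared an array with EBF-/- replicate 1, and E2A-/- replicate 1 with RAG1-/- replicate 1. These values therefore cannot tell whether replicate numbers pair the samples. With the replicate number as a block, 6 members were called in EBF-/- against E2A-/- cells (1 higher, 5 lower), 7 in RAG1-/- against EBF-/- cells and 6 in RAG1-/- against E2A-/- cells. Of all 12276 genes, 6797 were called with that block in RAG1-/- against EBF-/- cells and 7064 in RAG1-/- against E2A-/- cells. Beside the dye term, the block leaves none of the RAG1-/- spread in the error. Over the whole array the genes called in the first comparison went from 3060 to 5062 with the block, to 1798 with no filter on dim probes, to 1021 at an adjusted p of 0.01, and to between 482 and 5183 with 1 sample left out. With 1 sample left out, 2253 to 5634 genes were called in RAG1-/- against EBF-/- cells and 3311 to 6308 in RAG1-/- against E2A-/- cells, of 12276 tested. These calls were 5388 and 5780 with all samples.

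Precision is limited by 2 samples per group and by dim probes of Bad, Bmf and Bcl2l1 that were not well above background in some samples.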
